A study of Mus musculus with 16 samples.

Results

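The divergence of ovary and testis was measured in wild-type gonads of mouse embryos between embryonic day 12.5 (E12.5) and embryonic day 14.5 (E14.5), the interval in which the gonads of both sexes take on their own cell programmes. It was read from the 8 wild-type arrays of a set of 16, with 2 arrays each for ovary at E12.5, ovary at E14.5, testis at E12.5 and testis at E14.5. The other 8 arrays repeat these groups in Wnt4 knock-out embryos, which lack a secreted WNT ligand, and served to estimate the variance and as a second set of samples. Arrays were of the Affymetrix Mouse430_2 type and measured total RNA of whole gonads. The labels give neither strain nor knock-out allele. They describe arrays of a group as biological replicates without saying if the RNA of an array came from 1 embryo or several, and the p-values cover array-to-array spread alone. Male samples carry the word ovary in their titles but testis as their source, and were treated as testis.

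For each gene, the stage change was the mean log2(intensity + 4) at E14.5 minus that at E12.5 in 1 gonad. The divergence was the stage change in testis minus the stage change in ovary, so a positive value means a larger rise or a smaller fall in testis. Genes on the 19 autosomes were used, 11873 of 12336, each represented by a single probe set, and a gene passed when its limma p-value, adjusted by the Benjamini-Hochberg method over these genes, was under 0.05. The 20th percentile of an array's intensities was 4.15 (median over arrays), so intensities below about 10 lie near the bottom of the range, and changes of such genes are understated on this scale. In whole gonads, fewer cells of a type and less RNA per cell cannot be told apart.

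In fetal gonads of both sexes, germ cells lie among supporting cells, which become Sertoli cells in the testis and pre-granulosa cells in the ovary. Female germ cells respond to retinoic acid, switch on the transcription factors STRA8 and MEIOSIN and enter meiotic prophase before birth. Male germ cells instead stop dividing, keep pluripotency factors for longer and start the piRNA pathway, which silences transposons with small RNAs, while Leydig cells of the testis interstitium begin to make androgen from cholesterol.

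Several arrays stood apart before any gene was compared. Opposite-sex RNA, estimated from Y-linked genes (ovary arrays) or Xist (testis arrays), made up 18.2% and 6.95% in the ovary arrays at E12.5, 0.423% and 19.9% in those at E14.5, and 0.0603% and 22.8% in the testis arrays at E14.5. In the testis arrays at E12.5 it was at most 0.00135%. The lower Xist reading of these arrays, 5.92, set the zero point for all testis arrays, so this low value follows in part from the method. The 3'/5' ratio of the Gapdh and actin controls, a sign of RNA quality, was 1.76 in replicate 2 of the ovary at E12.5 and between 1.06 and 1.25 in the other wild-type arrays. At E12.5 the pair of testis arrays was almost identical: their log2 difference had an SD over genes of 0.142, while the other 7 groups, knock-out groups included, had 0.333 to 0.589. Mean intensity lay between 272 and 288 on all 16 arrays.

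Both gonads had stage changes in common, and a small set of genes moved apart. In the ovary 492 genes (4.14% of those tested) changed with stage, 277 up and 215 down. In the testis 1213 genes (10.2%) changed, 772 up and 441 down. The larger testis count depended on the arrays used. It fell below the ovary count when the almost identical testis arrays at E12.5 were averaged. The order was also reversed without the E14.5 arrays of over 10% opposite-sex RNA. Changes past the threshold in both gonads and in the same direction were found for 194 genes (1.63%), 107 rises (0.901%) and 87 falls (0.733%), which is 39.4% of the ovary's changes and 16% of the testis's. The divergence itself passed for 19 genes (0.16%), of which 14 were higher on the testis side (0.118%) and 5 on the ovary side (0.0421%), and 2132 genes (18%) had an unadjusted p under 0.05. For each of the 19, every testis difference between an E14.5 and an E12.5 array lay beyond every ovary one, which held for 36.6% of all genes, 22.1% with the testis above and 14.5% with the ovary above. The median divergence over all genes was 0.12.

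**Figure D1:**
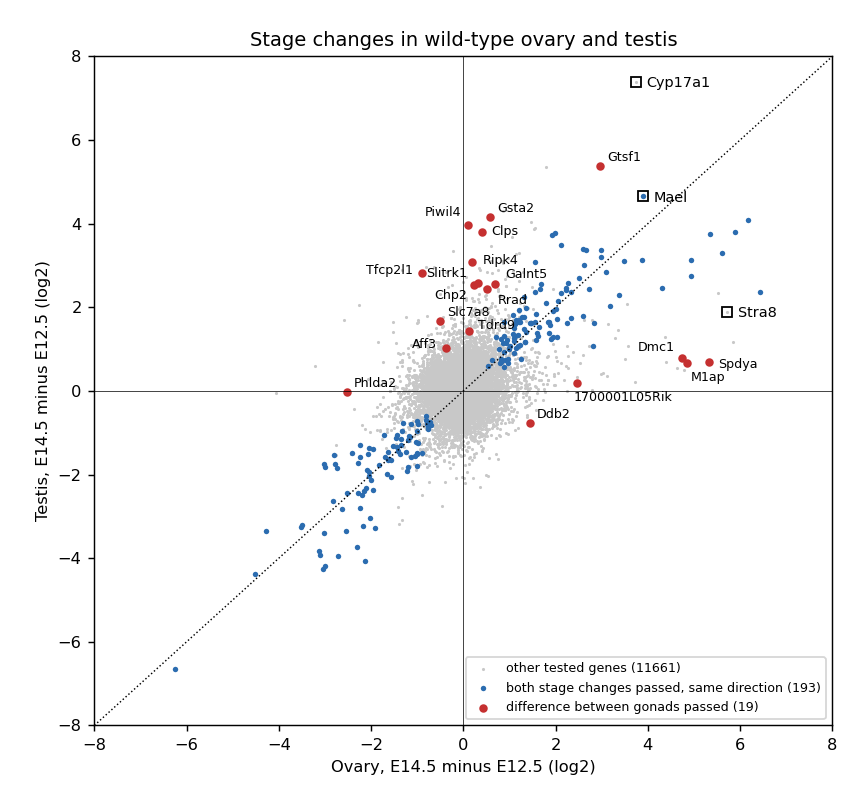
Each point is 1 of the 11873 tested autosomal genes, with its log2 stage change in wild-type ovary on the horizontal axis and in wild-type testis on the vertical axis; the dotted line marks equal change. The 19 genes whose divergence passed (red) lie off that line, genes past the threshold in both gonads in the same direction (blue) lie in the lower left and upper right, and Stra8, Cyp17a1 and Mael are boxed.

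Without the E14.5 arrays of over 10% opposite-sex RNA, ovary and testis each kept 1 array at E14.5. Results of that setting, here and below, assume that such a lone array varies like the others. The number of genes that passed depended on the arrays used. It was 303 (2.55%, 180 toward testis and 123 toward ovary, all 19 included) without the ovary and testis array at E14.5 that held over 10% opposite-sex RNA. It was 3 (Clps, M1ap and Dmc1) with the almost identical testis arrays averaged into 1 replicate, and 2 without the 3 arrays at E12.5 of high 3'/5' ratio, 1 wild-type and 2 knock-out. Leaving out single arrays gave 780 and 5 without replicates 1 and 2 of the ovary at E12.5, 3 and 498 for the ovary at E14.5, 3 and 3 for the testis at E12.5, and 11 and 12 for the testis at E14.5, with a lone array assumed to vary like the others. All 19 genes kept their direction in each of 25 alternatives, and the divergence of Clps lay between 2.42 and 3.88. For these 19 every testis difference lay beyond every ovary one, so leaving out or averaging arrays could not have turned the direction.

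By class, 12 of the 19 genes passed the stage test in testis only and rose there: Aff3, Chp2, Clps, Galnt5, Gsta2, Piwil4, Ripk4, Rrad, Slc7a8, Slitrk1, Tdrd9 and Tfcp2l1. The stage test passed in ovary only for 5 genes, with rises of Dmc1, M1ap, Spdya and 1700001L05Rik and a fall of Phlda2. Gtsf1 rose in both gonads and Ddb2 moved in opposite directions. When ovary and testis were compared within a stage, 61 genes differed at E12.5 (0.514%) and 426 at E14.5 (3.59%). Of the 19, 16 passed this comparison at E14.5 and not at E12.5. Phlda2, Slitrk1 and Tfcp2l1 passed it at E12.5 and not at E14.5. A missed threshold does not show equal levels. Ripk4 at E12.5 had a log2 difference, testis minus ovary, of -1.49 (limma adjusted p = 0.072). For Tfcp2l1 at E14.5 it was 1.36 (limma adjusted p = 0.148).

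Genes of meiotic prophase rose in the ovary. Of 29 tested genes of a list for meiotic entry and prophase, 26 rose there, against 2.33% of all genes, and none fell, with a median stage change of 3.55 on the log2 scale. In the testis 8 of them rose (Mael, Smc1b, Syce1, Sycp1, Sycp2, Sycp3, Tex101 and Tex12), against 6.5% of all genes, and the median was 0.78. Every member except Mael had a negative divergence, with a median of -1.81, but Dmc1 alone passed, and 20 members had an unadjusted p under 0.05. Without the E14.5 arrays of over 10% opposite-sex RNA, 20 of the 29 passed, against 2.55% of all genes.

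Stra8, the gatekeeper of meiotic entry, read 6.95 and 12.7 in ovary at E12.5, 828 and 606 in ovary at E14.5, 4.67 and 4.55 in testis at E12.5, and 5.55 and 104 in testis at E14.5. Both ovary arrays at E14.5 lay above all others, and the testis array at 104 was the one with 22.8% female RNA. Stra8 rose in the ovary (log2 5.72, SE 0.84, adjusted p = 0.00173), whereas its divergence of -3.82 (SE 1.19) did not pass (adjusted p = 0.158). Without the E14.5 arrays of over 10% opposite-sex RNA the divergence was -5.79 (adjusted p = 0.0115), and it passed in 3 of 25 alternatives.

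Dmc1, the recombinase that pairs DNA strands in meiosis, read 6.74 and 4.60 in ovary at E12.5, then 398 and 162 at E14.5, against 4.77 and 4.55 in testis at E12.5, then 9.62 and 12.2 at E14.5. Both E14.5 ovary arrays lay far above the other arrays. Its divergence was -3.97 (SE 0.48, adjusted p = 0.00493). M1ap, a gene needed for meiosis in males, read 6.07 and 6.09 in ovary at E12.5, 360 and 226 at E14.5, 4.86 and 4.59 in testis at E12.5, then 5.97 and 15 at E14.5, for a divergence of -4.18 (SE 0.47, adjusted p = 0.00329). Here too the ovary groups did not overlap and the 15 belonged to the testis array with female RNA. With any single wild-type array left out, the divergence lay between -4.61 and -3.33 for Dmc1 and between -4.65 and -3.72 for M1ap.

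Spdya, which encodes the CDK2 activator Speedy A that acts at meiotic telomeres, had the largest divergence toward ovary of the genes that passed. It read 6.74 and 6.44 in ovary at E12.5, then 720 and 245 at E14.5, against 9.59 and 9.85 in testis at E12.5, then 8.00 and 36.4 at E14.5, and its divergence was -4.64 (SE 0.79, adjusted p = 0.0347). The spread within both E14.5 groups was wide, with the array of more opposite-sex RNA nearer to the other gonad in each. The uncharacterised gene 1700001L05Rik read 8.04 and 6.89 in ovary at E12.5, 82.3 and 42 at E14.5 and between 6.87 and 8.89 in all 4 testis arrays (divergence -2.27, SE 0.35, adjusted p = 0.0244). Near the threshold were Inca1 (divergence -4.29, adjusted p = 0.0589), Tex101 (-4.06, adjusted p = 0.0677) and the telomere adaptor gene Terb1 (-4.67, adjusted p = 0.077). Figla, the oocyte transcription factor that prepares primordial follicles, read 250 and 38.4 in ovary at E14.5 and 3.75 to 7.14 on the other 6 arrays, with a divergence of -3.49 (adjusted p = 0.0867). It was not typical of its list, oocyte growth and follicle genes, of which 6 of 16 members were tested. Of these 6, 5 had a positive divergence, the median was 0.48 and none passed by limma.

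Promoters were searched because the genes of this ovary-side group moved together. The STRA8-MEIOSIN pair is known for the motif CNCCTCAG, where N is any base. It was searched on both strands in the 250 bases before the start of each gene (RefSeq, build GRCm38.p6). The motif was found in 8.83% of 9577 tested autosomal genes with a promoter, in 7.39% of all 27025 promoters, in 4 of 24 promoters of the meiotic list (16.7%: Hormad2, Inca1, Msh5 and Syce2) and in 1 of 4 of the genes that diverged toward ovary (M1ap). Of the genes that passed toward ovary without the E14.5 arrays of over 10% opposite-sex RNA, 19 of 103 held it (18.4%), and 15 of 135 toward testis (11.1%). The 3 promoters below run 5' to 3' on the gene's strand with the motif in capitals: M1ap, chr6:82946672-82946921, plus strand; Inca1, chr11:70700156-70700405, minus strand; Figla, chr6:86016941-86017190, plus strand. Inca1 held it 2 times, on either strand. These 3 promoters were picked because they hold the motif, and the divergence of Inca1 and Figla did not pass. A match describes these letters and is not evidence of binding.
M1ap: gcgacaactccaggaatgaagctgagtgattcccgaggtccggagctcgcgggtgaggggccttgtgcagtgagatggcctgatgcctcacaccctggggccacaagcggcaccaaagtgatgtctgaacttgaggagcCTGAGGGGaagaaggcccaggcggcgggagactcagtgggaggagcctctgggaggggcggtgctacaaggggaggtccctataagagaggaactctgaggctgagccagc
Inca1: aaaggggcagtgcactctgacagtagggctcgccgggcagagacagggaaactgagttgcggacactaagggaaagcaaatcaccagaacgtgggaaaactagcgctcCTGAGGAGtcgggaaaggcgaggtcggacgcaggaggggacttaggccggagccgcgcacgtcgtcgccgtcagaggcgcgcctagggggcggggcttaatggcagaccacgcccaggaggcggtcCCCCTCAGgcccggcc
Figla: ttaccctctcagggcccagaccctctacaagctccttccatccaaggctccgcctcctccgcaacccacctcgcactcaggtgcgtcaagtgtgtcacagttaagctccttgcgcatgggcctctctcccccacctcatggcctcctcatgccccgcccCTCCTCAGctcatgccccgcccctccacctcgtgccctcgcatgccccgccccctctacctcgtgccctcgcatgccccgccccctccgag

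**Figure D2:**
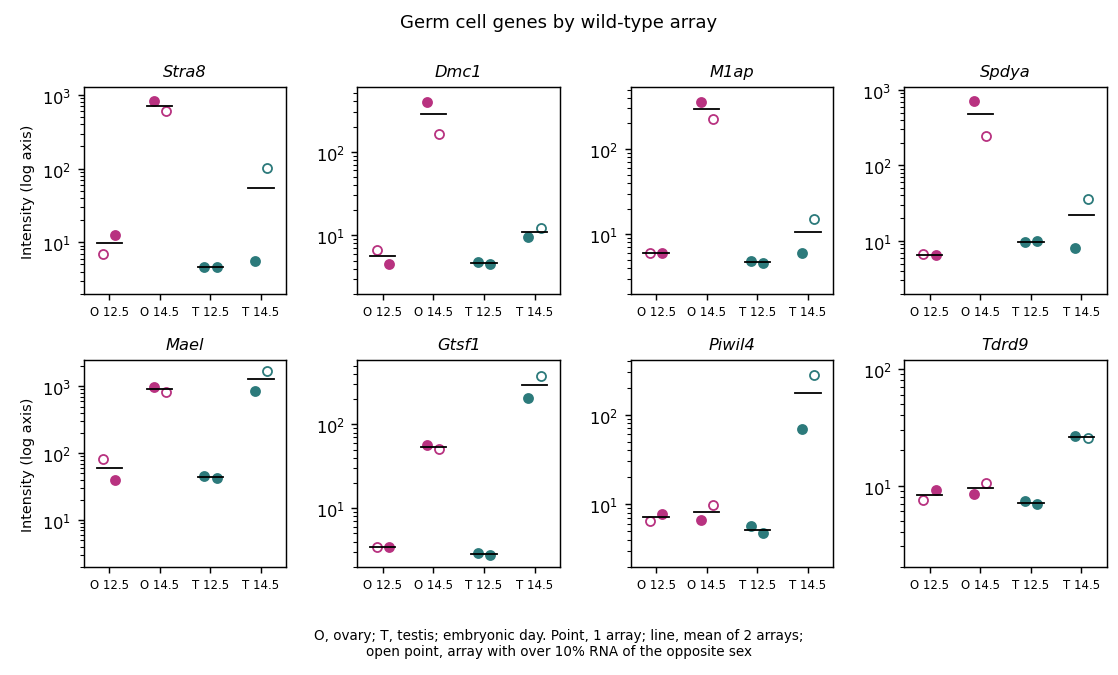
Intensity on a log axis for 8 germ cell genes on each of the 8 wild-type arrays, by gonad (O, ovary; T, testis) and embryonic day; a point is 1 array, a line is the mean of 2, and open points are arrays with over 10% opposite-sex RNA. Stra8, Dmc1, M1ap and Spdya are high in ovary at E14.5, Piwil4 and Tdrd9 in testis at E14.5, and Mael and Gtsf1 in both gonads at E14.5.

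Germ cell genes of the piRNA pathway and of male differentiation rose in the testis, and some rose in both gonads. Of 20 tested members of that list, 11 rose in testis (6.5% of all genes did) and Tdgf1 fell, and 4 rose in the ovary (2.33% of all genes did). The 4 that rose in the ovary, Asz1, Ddx4, Mael and Mov10l1, rose in both. The divergence passed toward testis for Piwil4 and Tdrd9 (0.118% of all genes), the list's median was 1.05, and 11 members had an unadjusted p under 0.05 toward testis. Without the E14.5 arrays of over 10% opposite-sex RNA 7 passed, against 2.55% of all genes, with Tdrd5, Piwil2, Dnd1, Dppa2 and Dppa4 added.

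Piwil4, which encodes the PIWI protein that carries piRNAs into the nucleus of fetal male germ cells, read 68.6 and 276 in testis at E14.5 and 4.72 to 9.67 on the other 6 arrays. Its divergence of 3.85 (SE 0.66, adjusted p = 0.0349) was the largest among the genes that passed toward testis, and its testis arrays at E14.5 were far apart. A second probe set of Piwil4 stayed between 2.96 and 4.70 on every array and had a divergence of 0.032, so the value rests on 1 probe set. Tdrd9, a helicase of the same pathway, read 26.5 and 25.7 in testis at E14.5 and 6.87 to 10.4 elsewhere, a divergence of 1.31 (SE 0.21, adjusted p = 0.028).

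Gtsf1, which encodes a piRNA pathway factor with zinc fingers, was the gene that both rose in both gonads and diverged. It read 3.45 and 3.40 in ovary at E12.5, then 56.6 and 51.1 at E14.5, and 2.94 and 2.78 in testis at E12.5, then 205 and 383 at E14.5. No array of E14.5 overlapped with E12.5, and the testis arrays at E14.5 were above the ovary arrays. The rise was 2.96 in ovary and 5.37 in testis, and the divergence was 2.41 (SE 0.40, adjusted p = 0.0308).

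Mael, a germ cell gene of the same pathway, rose in both gonads. It read 80.8 and 39.2 in ovary at E12.5, 984 and 819 at E14.5, 45.9 and 43.0 in testis at E12.5, then 858 and 1716 at E14.5. The rises were 3.90 (adjusted p = 0.000753) in ovary and 4.65 (adjusted p = 0.000152) in testis, and the divergence of 0.75 (SE 0.73, 95% interval -0.83 to 2.33) did not pass (adjusted p = 0.603), which does not show equal change. Promoters of Tdrd9 and Mael are shown as examples that hold CACGTG, which promoters of the list that holds these genes often carry. CACGTG is the canonical E-box, is its own reverse complement and is not contained in the motif above. It was present in 7 of 14 promoters of the list (50%: Ddx4, Dnmt3a, Dnmt3l, Mael, Mov10l1, Tdrd1 and Tdrd9), in 7 of 24 of the meiotic list (29.2%), in 10% of the 9577 promoters of tested genes and in 6.86% of all promoters. Of the genes whose divergence passed toward testis, 1 of 11 held it (9.09%, Tdrd9), near the share of tested genes. Toward ovary it was 1 of 4 (1700001L05Rik). Tdrd9 lies at chr12:111971309-111971558 on the plus strand and Mael at chr1:166238745-166238994 on the minus strand, in GRCm38.p6, with the motif in capitals.
Tdrd9: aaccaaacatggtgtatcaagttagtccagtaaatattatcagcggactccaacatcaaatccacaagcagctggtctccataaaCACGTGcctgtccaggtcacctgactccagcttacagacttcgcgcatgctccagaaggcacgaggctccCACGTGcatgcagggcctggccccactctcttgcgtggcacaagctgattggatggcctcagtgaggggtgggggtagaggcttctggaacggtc
Mael: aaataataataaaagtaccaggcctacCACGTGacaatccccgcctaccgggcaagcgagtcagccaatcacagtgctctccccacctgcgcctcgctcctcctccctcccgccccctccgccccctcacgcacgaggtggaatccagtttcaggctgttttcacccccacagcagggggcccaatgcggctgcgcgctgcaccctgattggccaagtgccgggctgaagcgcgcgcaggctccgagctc

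No tested member of the list of germ cell pluripotency genes passed the divergence test. All 19 had a positive divergence (58.8% of all genes did), with a median of 2.44, and 12 had an unadjusted p under 0.05. In the ovary Esrrb, Kit, Sox2 and Tfap2c fell (1.81% of all genes did) and Prdm1 rose (2.33%). In the testis Alpl and Prdm1 rose (6.5% of all genes did) and Kit fell (3.71%). Lin28a, an RNA-binding protein of early germ cells, read 151 and 170 in ovary at E12.5, 8.51 and 89.7 at E14.5, 74.3 and 69.7 in testis at E12.5, then 224 and 430 at E14.5. The gonads did not overlap at E14.5, and the ovary array at 89.7 was the one with 19.9% male RNA. Its divergence was 4.31 (SE 0.97, adjusted p = 0.0822), and 5.30 (adjusted p = 0.00218) without the E14.5 arrays of over 10% opposite-sex RNA, where 11 of the 19 members passed, against 2.55% of all genes.

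Tfcp2l1, a transcription factor of the pluripotency network that was not on the list, read 48.7 and 110 in ovary at E12.5, 18.4 and 73.5 at E14.5, 11.3 and 10.8 in testis at E12.5, then 112 and 94.9 at E14.5. The ovary arrays lay above the testis arrays at E12.5 and below them at E14.5. Its divergence was 3.73 (SE 0.66, adjusted p = 0.0462). Within the ovary the stages overlapped.

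Genes of androgen synthesis rose in the testis. Of 17 tested members of the list for fetal Leydig cells and steroidogenesis, 11 rose in testis (6.5% of all genes did) and Mc2r fell (3.71%), and in the ovary Thbs2 rose (2.33%) and Mc2r fell (1.81%). The median stage change was 0.08 in ovary and 1.41 in testis and the median divergence 1.12, with 8 members at an unadjusted p under 0.05 and none past the threshold by limma. The ovary arrays at E14.5 disagreed for this list, as Cyp17a1 shows.

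Cyp17a1, the enzyme that turns progestagens into androgens, read 4.75 and 5.95 in ovary at E12.5, 6.58 and 1459 in ovary at E14.5, 15.9 and 15.3 in testis at E12.5, and 3787 and 2851 in testis at E14.5. The ovary array at 1459 was the one with 19.9% male RNA, and the other ovary array was at the level of E12.5. Cyp17a1 rose in testis (log2 7.39, SE 1.56, adjusted p = 0.0098), but its divergence of 3.66 (SE 2.21, 95% interval -1.10 to 8.41) did not pass (adjusted p = 0.392). It was 0.10 without the ovary array at 6.58 and 7.42 (adjusted p = 0.0197) without the E14.5 arrays of over 10% opposite-sex RNA. Star, which moves cholesterol into mitochondria, showed the same split, with 5.83 and 178 in ovary at E14.5, 568 and 505 in testis at E14.5 and 42.6 to 50.5 at E12.5. Its divergence was 3.58 (adjusted p = 0.184), and 5.77 (adjusted p = 0.000591) without these arrays, when 8 of the 17 members passed, against 2.55% of all genes. How much of the ovary signal came from male RNA was not tested.

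Cholesterol synthesis, which feeds the steroids, went the same way. Of 14 tested genes 11 rose in testis (6.5% of all genes did) and none in ovary, where the median was 0.17 against 1.17 in testis. Dhcr7, the last reductase of the pathway, read 145 and 240 in ovary at E12.5, 120 and 203 at E14.5, 99.3 and 99.3 in testis at E12.5, then 654 and 541 at E14.5. The testis arrays at E14.5 were above all others. Its divergence of 2.79 (SE 0.53) had an adjusted p of 0.058.

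Clps and Gsta2 were among the genes that rose in testis alone. Clps, which encodes the lipase cofactor colipase, read 96.7 and 115 in testis at E14.5 and 3.78 to 10.1 on the other 6 arrays, with the 10.1 in the ovary array of 19.9% male RNA. Its divergence was 3.39 (SE 0.31, adjusted p = 0.000688), the smallest adjusted p of all genes. Gsta2, an alpha-class glutathione S-transferase, read 242 and 181 in testis at E14.5, 8.61 and 7.37 in testis at E12.5 and 4.65 to 22.5 in the ovary arrays, for a divergence of 3.58 (SE 0.56, adjusted p = 0.0244). For both, no other array came near the E14.5 testis values.

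**Figure D3:**
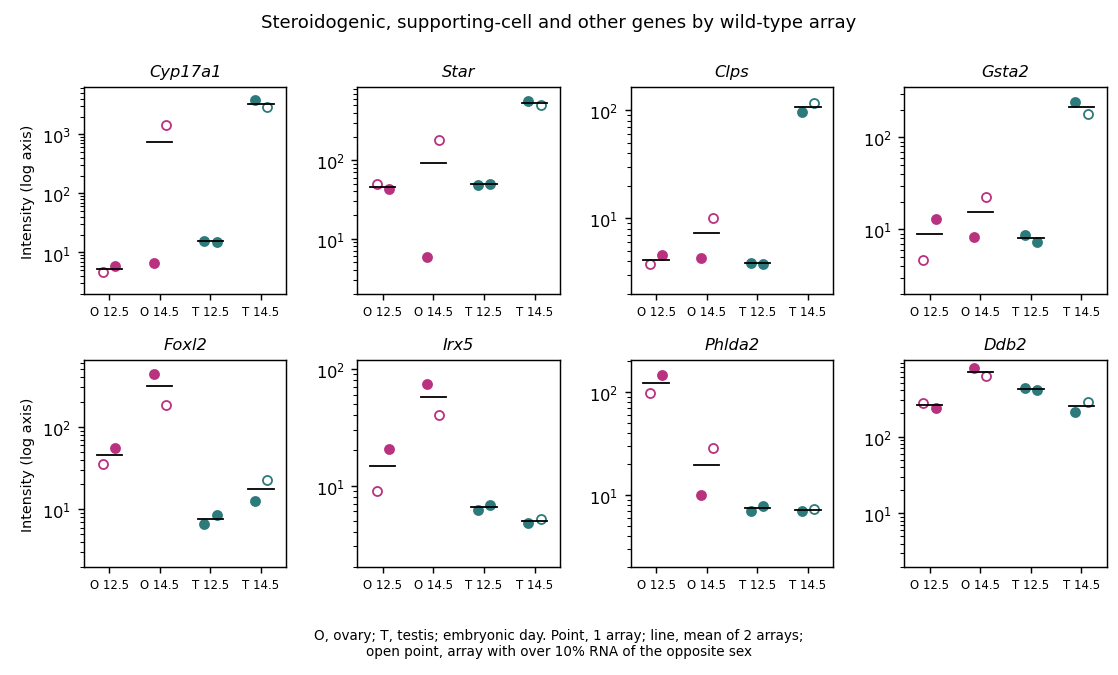
Intensity on a log axis for 8 further genes on each of the 8 wild-type arrays, by gonad (O, ovary; T, testis) and embryonic day; a point is 1 array, a line is the mean of 2, and open points are arrays with over 10% opposite-sex RNA. Cyp17a1 and Star are split between the ovary arrays at E14.5, Clps and Gsta2 are high in testis at E14.5, Foxl2 and Irx5 in ovary at E14.5, and Phlda2 is high in ovary at E12.5.

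No supporting-cell gene of either list passed the divergence test by limma. Of 23 tested Sertoli genes 5 rose in testis (Clu, Ctsl, Hsd17b3, Inha and Sostdc1), against 6.5% of all genes, and Clu also rose in ovary. The list had a median divergence of 0.78, with 5 members at an unadjusted p under 0.05. Without the E14.5 arrays of over 10% opposite-sex RNA the median was 1.85, and Dmrt1, Inhbb, Hsd17b3 and Sostdc1 passed toward testis (4 of 23, against 2.55% of all genes in either direction). Without all wild-type arrays of that kind the median was 2.02, with 1 array left in ovary at each stage and in testis at E14.5. The ovary array left at E12.5 was that of 3'/5' ratio 1.76. The Sertoli gene Cst9 read 90.1 and 145 in ovary and 1582 and 1408 in testis at E12.5, and 3.40 and 565 in ovary and 1707 and 1157 in testis at E14.5. Sox9, a transcription factor of Sertoli cells, read 94.9 and 50.6 in ovary and 112 and 119 in testis at E12.5. At E14.5 it read 11.1 and 56.2 in ovary and 114 and 107 in testis. For both genes the testis arrays were higher at both stages, and the low ovary value at E14.5 was from the array with 0.423% male RNA, the high one from that with 19.9%.

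Of 24 tested pre-granulosa genes, Foxl2, Irx5, Lgr5, Nkd2 and Runx1 rose in ovary (2.33% of all genes rose) and Ctnnb1 and Msx2 rose in testis (6.5% of all genes). None passed the divergence test by limma, with 5 toward ovary and 3 toward testis at an unadjusted p under 0.05. The list's median divergence was 0.36, on the testis side, and 16 of the 24 were positive (58.8% of all genes were). Foxl2, the factor that maintains the granulosa fate, read 35.4 and 54.6 in ovary at E12.5, 437 and 184 at E14.5, 6.67 and 8.53 in testis at E12.5, then 12.7 and 22.7 at E14.5. The ovary was higher at both stages, and the divergence was -1.72 (SE 0.60, adjusted p = 0.184). Irx5, a homeobox gene of these cells, read 8.99 and 20.6 in ovary at E12.5, 75.1 and 40.5 at E14.5 and 4.79 to 6.75 in testis, a divergence of -1.96 (SE 0.41, adjusted p = 0.0677). Without the E14.5 arrays of over 10% opposite-sex RNA both passed, at -2.67 and -2.40, and Msx2 passed toward testis at 2.98 (adjusted p = 0.000316).

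Phlda2 and Ddb2 diverged with patterns of their own. Phlda2, an imprinted growth regulator, read 97.7 and 146 in ovary at E12.5, 10.03 and 28.7 at E14.5 and 6.97 to 7.83 in all 4 testis arrays. It fell in the ovary (log2 -2.53, SE 0.31, adjusted p = 0.00037), and its positive divergence of 2.49 (SE 0.44, adjusted p = 0.0437) stood beside a stage change of -0.03 in testis. Ddb2, a sensor of ultraviolet DNA damage and p53 target, read 271 and 237 in ovary at E12.5, 777 and 621 at E14.5, 435 and 408 in testis at E12.5, then 211 and 283 at E14.5. It rose in ovary by 1.44 and fell by 0.78 in testis, a divergence of -2.22 (SE 0.31, adjusted p = 0.0124). The order of the gonads was reversed between the stages.

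The other genes that diverged toward testis came from several functions. Ripk4, a kinase of epithelial differentiation, read 161 and 271 in testis at E14.5 against 22 and 20.4 at E12.5, with 50.6 to 87.9 in the ovary arrays (divergence 2.89, adjusted p = 0.0308). Slitrk1, a neuronal membrane protein, read 9.02 and 7.74 in testis at E12.5, then 63.4 and 77.6 at E14.5, so it reached or passed the ovary range of 40.8 to 67.8 (divergence 2.27, adjusted p = 0.0308). The divergence was 2.31 for the calcineurin-like Chp2, 2.18 for the amino acid transporter Slc7a8, 1.91 for the small GTPase Rrad, 1.88 for the glycosyltransferase Galnt5 and 1.40 for the nuclear factor Aff3. For Chp2, Rrad, Galnt5 and Aff3 both E14.5 testis arrays exceeded every other array, as did those of Slc7a8. Of the 19 genes 9 had further probe sets, 10 in all. The divergence had the same sign in the 7 that exceeded an intensity of 10 on some wild-type array, and the other 3, of Piwil4 and Tfcp2l1, stayed at the bottom of the range throughout, so Tfcp2l1 too rests on 1 probe set.

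Matrix and stroma genes rose in the testis. Of 26 tested genes for basement membrane and collagens, 18 rose in testis (6.5% of all genes did) and Col6a1 rose in ovary (2.33%). Col9a1 fell in both gonads (0.733% of all genes did). The divergence had a median of 0.84, 17 members had an unadjusted p under 0.05 toward testis, and none passed by limma. The collagen IV gene Col4a1 read 3004 and 5580 in ovary at E12.5, 3275 and 2820 at E14.5, 2573 and 2527 in testis at E12.5, then 5745 and 4458 at E14.5 (divergence 1.42, adjusted p = 0.0921). Its high ovary value at E12.5 belonged to the array of 3'/5' ratio 1.76. Fn1, which encodes fibronectin, had a divergence of 1.04 (adjusted p = 0.0655) on its brighter probe set and -1.26 on the other. Of 16 tested interstitial genes 8 rose in testis (6.5% of all genes did) and 3 in ovary (2.33%), the latter (Dcn, Lum and Ogn) in both. The heat shock gene Hspa1a rose in testis by 3.10, from 8.80 and 5.76 to 75 and 113, with a divergence of 2.27 (adjusted p = 0.0532).

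**Figure D4:**
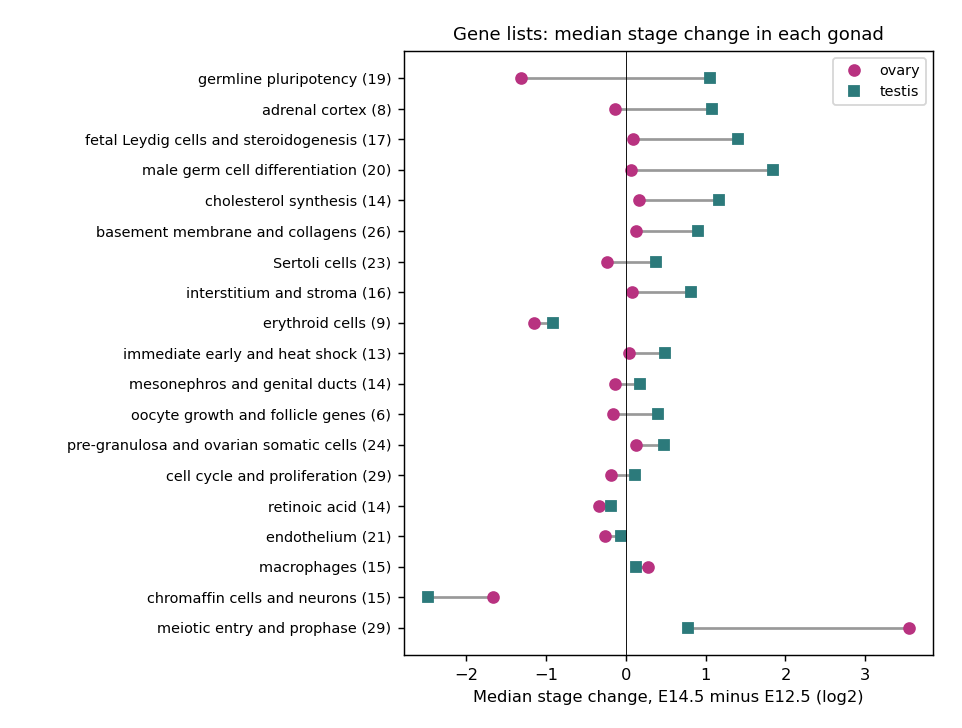
Median log2 stage change between E12.5 and E14.5 in wild-type ovary (circles) and testis (squares) for each of 19 gene lists, with the number of tested genes in brackets, ordered by median divergence. Pluripotency genes had the largest gap toward testis and meiotic genes the largest toward ovary, while chromaffin and neuronal genes and erythroid genes were lower at E14.5 in both.

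Stage changes shared by both gonads were reported where the data bound the difference. Of the 194 shared genes, 57 had a 95% interval of the divergence within -1 to 1, 36 rises and 21 falls. Such an interval was found for 36.4% of all genes. Among these 57, the largest rises by mean of both gonads were those of Lox, Hspa4l, Lgi2, Btbd18, Lum, Zfp667, Dcn and Spata5. Lox, the enzyme that crosslinks collagen, read 93 to 109 in the E12.5 arrays of both gonads, 533 and 658 in ovary at E14.5 and 713 and 640 in testis at E14.5. It rose by 2.51 in ovary and 2.69 in testis. The stages did not overlap and the gonads did. Btbd18, a regulator of piRNA transcription in male germ cells, rose by 2.01 and 1.95, and the matrix proteoglycans lumican (Lum) and decorin (Dcn) rose by 1.86 and 1.63 in ovary and 1.38 and 1.32 in testis. Over 25 alternatives the divergence of the 16 named shared genes stayed between -0.69 and 0.52. They were picked for an interval within -1 to 1, so a narrow range was favoured by the choice.

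Among the same 57 genes, the largest falls were those of Clec1b, Ret, Efemp1, Foxp2, Csrnp3, Nsg2, Cck and Dact1. Clec1b, a receptor of platelets and myeloid cells, read 35.2 to 41.8 in the E12.5 arrays of both gonads and 4.88 to 6.33 at E14.5. Ret, the receptor for GDNF, fell by 2.05 in ovary and 2.04 in testis. Genes typical of other tissues fell as well. Of 15 tested genes of chromaffin cells and neurons 10 fell in ovary (1.81% of all genes did) and 13 in testis (3.71%), 9 in both. Chgb, a secretory granule protein of such cells, read 818 to 993 at E12.5 and 4.51 to 8.80 at E14.5. The embryonic globin gene Hbb-bh1 fell by 4.28 in ovary and 3.35 in testis, and Mc2r, the receptor for the adrenal-stimulating hormone, fell by 2.07 and 1.51. Mc2r was the single member of 8 tested adrenal cortex genes that fell, while Cyp11a1, Hsd3b1, Scarb1 and Star, which are also on the Leydig list, rose in testis. Whether adjoining tissue in the E12.5 dissections had a part in these falls was not tested.

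The same divergence was computed in the Wnt4 knock-out arrays, which share no sample with the wild-type ones but share the variance estimate. There 148 genes passed (1.25%), 112 toward testis (0.943%) and 36 toward ovary (0.303%). All 19 wild-type genes had the same sign, as did 75.2% of all genes, and 11 of them passed: 1700001L05Rik, Clps, Ddb2, Dmc1, Gsta2, Gtsf1, M1ap, Piwil4, Rrad, Spdya and Tdrd9. That is 57.9% of the wild-type genes and 7.43% of the knock-out genes. Of the 148, 135 had the same sign in wild type. The number in the knock-out lay between 29 and 559 when single arrays were left out, at 29 without ovary E12.5 replicate 1 and 559 without ovary E12.5 replicate 2. The first of these arrays had the highest 3'/5' ratio, 2.27, and the second held 17.9% male RNA. The testis array of replicate 2 at E14.5 held 16.5% female RNA, and the other knock-out arrays held at most 0.432% RNA of the other sex.

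Clps read 118 and 142 in knock-out testis at E14.5 and 3.58 to 5.17 on the other knock-out arrays, a divergence of 3.85 (SE 0.31, adjusted p = 0.000147). M1ap read 369 and 665 in knock-out ovary at E14.5 and 5.23 to 11.1 elsewhere, a divergence of -5.22 (adjusted p = 0.000241). Stra8 read 1149 and 1081 in knock-out ovary at E14.5 and 4.82 to 64.2 elsewhere, the 64.2 on the testis array with 16.5% female RNA, with a divergence of -5.21 (adjusted p = 0.0531). In the knock-out 8 of the 29 meiotic genes passed toward ovary, against 0.303% of all genes.

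Galnt5 and Phlda2 were near 0 in the knock-out. Galnt5 read 49.0 and 52.8 in wild-type testis at E14.5 and 5.73 and 10.9 in knock-out testis, and its knock-out divergence was 0.05. Phlda2 read 97.7 and 146 in wild-type ovary at E12.5 and 8.78 and 5.39 in knock-out ovary, and its knock-out divergence was 0.22. The difference of the divergence between genotypes did not pass for either (1.84, SE 0.37, adjusted p = 0.451 for Galnt5, and 2.27, SE 0.62, adjusted p = 0.99 for Phlda2). By limma 0 of 11873 genes passed that test, and 345 had an unadjusted p under 0.05, so the genes that passed in wild type and not in the knock-out are not shown to depend on Wnt4.

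**Figure D5:**
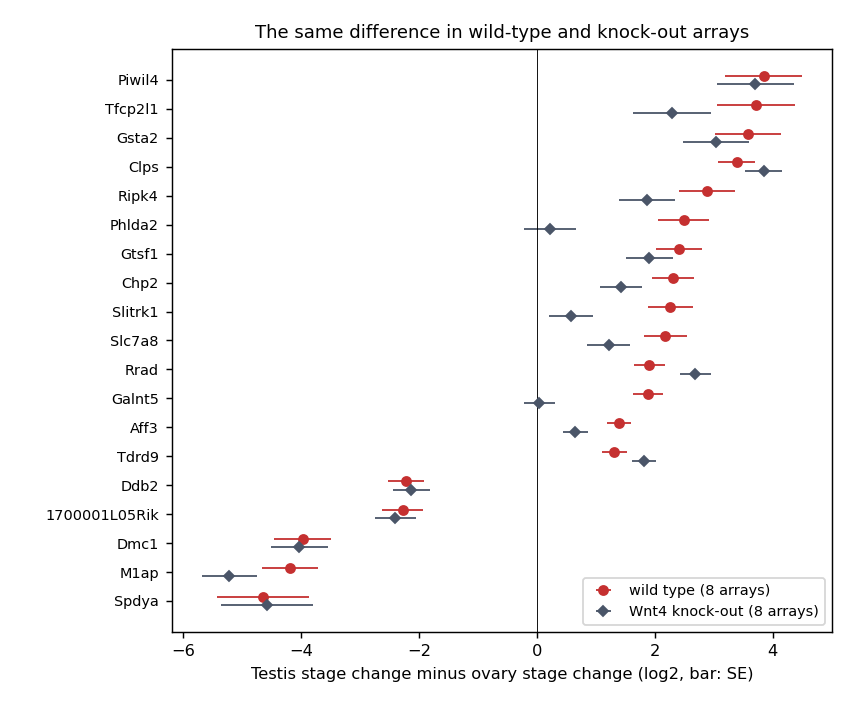
Divergence (testis stage change minus ovary stage change, log2) of the 19 genes in the 8 wild-type arrays (circles) and the 8 Wnt4 knock-out arrays (diamonds), with bars for the standard error of the limma fit. All 19 have the same sign in both, and Galnt5 and Phlda2 lie near 0 in the knock-out.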

How the data were processed

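Total RNA of whole embryonic gonads was measured on 16 Affymetrix Mouse430_2 arrays, 1 per sample. The authors deposited 1 intensity per probe set and array, on a linear scale, made with MAS5 per the submitters' processing notes (version and scaling target: not given in the sources used here). Of 45101 probe sets, 64 controls were left out. A probe set was kept when it lay above the array's median on at least 2 arrays (25620 kept). Genes were named from the array's annotation of 2016: 34958 probe sets carried 1 symbol, 932 several and 9211 none, and those with several or none were not named. Of the first, 34754 had a symbol found in RefSeq, which gave the chromosome. Each gene was represented by its kept probe set of highest mean, and 463 genes not placed on an autosome were left out.

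One linear model with a mean per group was fitted over all 16 arrays to log2(intensity + 4) with limma 3.58.1 in R 4.3.3, with intensity-trended empirical Bayes variances (8 residual and 5.34 prior degrees of freedom), so knock-out arrays contributed to the variance. P-values were two-sided, were adjusted over 11873 genes by the Benjamini-Hochberg method and passed under 0.05. Opposite-sex RNA was estimated as a share from Y-linked genes or Xist, relative to the other sex. With 2 arrays per group, the number of arrays limits the precision. On simulated data for the wild-type divergence over 11873 genes, 19 of 100 genes changed 2-fold and 73 of 100 changed 4-fold were recovered. There 7 unchanged genes were called. The simulated noise was independent, with the same SD for a gene on every array. Unequal spread between groups and opposite-sex RNA were not part of it, so these figures do not give recovery or false calls in the real arrays. Promoters were searched and figures drawn with Python 3.11.15 and matplotlib 3.10.9.

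The 19 gene lists (379 entries, 314 tested) and the choice of comparison were made with earlier results of these data known, so list counts are descriptions. Lists share members, such as Mael (meiotic and male germ cell lists), Dppa2 and Dppa4 (male germ cell and pluripotency) and Hsd17b3 (Leydig and Sertoli). Counts of different lists are therefore not independent. Genes named with values were Stra8, Cyp17a1 and Mael, the 12 largest divergences in each direction among passing genes whose arrays were fully separated, in each list the 4 members with the smallest p of the divergence, and the 8 largest shared rises and falls whose interval of the divergence lay within -1 to 1. Aff3 and the list members Sox9, Cst9, Chgb and Mc2r fall outside this rule and were named after their values were seen, as were members named only as part of a count. Alternatives covered the pseudocount, the low-value filter, quantile normalisation, array weights, the variance trend, the probe set rule, chromosomes, thresholds, covariates, a replicate block and the arrays used. Those without all wild-type arrays of over 10% opposite-sex RNA, without single knock-out arrays, and all for the genotype difference were chosen after seeing the data.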

Additional observations from a re-analysis of the deposited data

Results flagged for a closer look

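For 19 genes the change from E12.5 to E14.5 differed between wild-type testis and ovary by the limma test of that difference (adjusted p under 0.05 over 11873 genes, 2 arrays per group). Toward testis, the divergence on the log2 scale was 3.85 for Piwil4, 3.73 for Tfcp2l1, 3.58 for Gsta2, 3.39 for Clps, 2.89 for Ripk4, 2.49 for Phlda2 and 2.41 for Gtsf1. It was 2.31 for Chp2, 2.27 for Slitrk1, 2.18 for Slc7a8, 1.91 for Rrad, 1.88 for Galnt5, 1.40 for Aff3 and 1.31 for Tdrd9. Toward ovary it was -4.64 for Spdya, -4.18 for M1ap, -3.97 for Dmc1, -2.27 for 1700001L05Rik and -2.22 for Ddb2.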

How the results depend on the processing

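Counts of genes past the threshold were compared across alternatives with 19 for the divergence, 492 for the ovary stage change, 1213 for the testis stage change, 194 for shared changes, 148 for the knock-out divergence and 0 for the genotype difference. The divergence count was 30 with log2(intensity + 16), 6 with only the 8 wild-type arrays and 12 with opposite-sex RNA as a covariate. With the replicate number as a block it was 31 (19 toward testis and 12 toward ovary), and 1 for the genotype difference. Deviations of same-numbered wild-type arrays correlated at -0.298 to 0.0822 over 6 pairs of groups, and over all 28 pairs at -0.66 to 0.569 (7 over 0.1), so the numbers were not taken to pair samples. Array weights gave 167 ovary, 3759 testis, 124 shared, 226 knock-out and 1 genotype calls. The alternatives without arrays of over 10% opposite-sex RNA leave 1 array in some wild-type groups. Their counts assume that a lone array varies like the others. Without the wild-type E14.5 arrays of over 10% opposite-sex RNA the divergence gave 303, testis 477, shared 99 and genotype 2. Without all wild-type arrays of that kind the divergence gave 1068, ovary 1188, testis 696, shared 97 and genotype 4. Without the E12.5 arrays of high 3'/5' ratio the divergence gave 2, testis 2162, knock-out 44 and genotype 5. With the testis E12.5 arrays averaged the divergence gave 3 (1 toward testis), testis 274 and shared 93. At an adjusted p of 0.01 the counts were 3, 192, 438, 81 and 18, and at 0.1 they were 137, 748, 1977, 289 and 330, with 1 for the genotype difference. No filter and a covariate for the 3'/5' ratio each gave 1 genotype call. Leaving out single arrays gave 3 to 780 for the divergence, 176 to 1197 for ovary, 243 to 1419 for testis, 91 to 195 for shared, 29 to 559 for knock-out and 0 to 20 for genotype. Signs turned for Fn1 with the mean of its probe sets (-0.11), for Crabp1 without the arrays of over 10% opposite-sex RNA (0.13 for those of E14.5, 0.038 for all) and for Mael without all of those (-0.37). The cause was not tested.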

Other observations

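In other gene groups stage tests by limma are read against 2.33% of all genes up and 1.81% down in ovary, and 6.5% up and 3.71% down in testis. Of 14 tested genes of retinoic acid metabolism and binding, Aldh1a1, a dehydrogenase that makes retinoic acid, rose in both gonads, Aldh1a3 rose in testis, Crabp1, which binds retinoic acid in the cytoplasm, fell in both, and Crabp2 fell in testis. Crabp1 read 1464 and 1285 in ovary and 1559 and 1437 in testis at E12.5, and 247 and 456 in ovary and 296 and 107 in testis at E14.5. Of 29 tested cell cycle genes, Cenpe, Cenpf, Mki67 and Top2a rose in testis while Cdkn1c and Cenpa fell there, and in ovary Bub1 rose and Ccnd1 fell. Ccne2, a cyclin of S phase entry, had a divergence of -2.07 that did not pass (adjusted p = 0.124). Of 21 tested endothelial genes Cldn5 and Egfl7 fell in testis, and of 15 tested macrophage genes Mrc1 rose in testis. The divergence passed for no member of these lists, with 7 cell cycle genes toward testis and 1 toward ovary at an unadjusted p under 0.05, 2 and 1 in endothelium, 0 and 3 in macrophages and 1 and 1 in the retinoic acid list.

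Of 14 tested genes of the mesonephros and genital ducts, Cdh1, Krt8 and Sall1 rose and Calb1 and Ret fell in testis, and Gata3, Ret and Wnt9b fell in ovary. The divergence was positive for 12 of the 14, with a median of 0.51, and passed for none by limma, with 3 at an unadjusted p under 0.05. Calb1, a calcium-binding protein and one of the 2 others, read 235 and 380 in ovary at E12.5, then 358 and 265 at E14.5, against 71.7 and 69 at E12.5, then 24.8 and 5.10 at E14.5 in testis. It fell in testis (log2 -2.20, adjusted p = 0.00555), and its divergence of -2.24 did not pass (adjusted p = 0.119).

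Without the E14.5 arrays of over 10% opposite-sex RNA, genes outside the lists passed too, and those given here were chosen after their values were seen. Meioc, a meiosis factor of the germ line, had a divergence of -6.26 (adjusted p = 0.0222) and Prdm9, which marks recombination sites, one of -3.14 (adjusted p = 0.00688), while Hao2, a hydroxy acid oxidase, had one of 4.94 (adjusted p = 0.0022) and the germ line gene Tex19.1 one of 4.35. On all 8 wild-type arrays these were -3.18, -2.12, 3.46 and 3.02, and none passed.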
